A study of Mus musculus with 6 samples.

Results

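The genes described are 10 writers, readers and erasers of DNA methylation, chosen by gene symbol from a list (Dnmt1, Dnmt3a, Dnmt3b, Uhrf1, Uhrf2, Tet1, Tet2, Tet3, Hells and Mbd2). They are 10 of the 55471 gene IDs in the deposited expression table, and each is a single row there. The table comes from total RNA sequencing of haematopoietic stem cells of mice, the rare cells that renew themselves and give rise to all blood lineages. They were sorted by surface markers, as Lin- Kit+ Sca1+ CD48- CD150+ cells, from an organ that the labels give only as hematopoietic.

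All 6 libraries came from mice of the genotype labelled ETV6-RUNX1, a fusion of the transcription factors ETV6 and RUNX1 that arises in childhood B-cell precursor leukaemia. The 3 uninduced libraries (NoDox) came from mice whose labels list no treatment, and the 3 induced libraries (Dox) from mice fed doxycycline food for 2 weeks. Both groups thus carried the inducible allele. No library of doxycycline-fed mice without the fusion was analysed here, so induction of the fusion and doxycycline itself cannot be told apart. Strain, age, sex and the promoter that drives the fusion are not given in the sources used here, and the fusion transcript itself was not analysed here. The labels do not say whether a library is 1 animal or a pool, so p-values measure the spread between these libraries, which may be technical in part.

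Methyl groups on the cytosine of CpG dinucleotides are placed on unmethylated DNA by the de novo methyltransferases Dnmt3a and Dnmt3b. They are copied to the new strand after replication by the maintenance methyltransferase Dnmt1, which Uhrf1 recruits to hemimethylated CpG. Hells is a chromatin remodelling ATPase that opens nucleosomal DNA to methylation, Mbd2 binds methylated CpG and brings in the NuRD repressor complex, and the Tet enzymes oxidise methylcytosine towards its removal. In blood, DNMT3A and TET2 are the genes most often mutated in clonal haematopoiesis, and loss of either in mice increases stem cell self-renewal.

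Values are TPM, a length-corrected share of the transcripts of a library, so that levels of different genes can be compared within a library. TPM keeps no sequencing depth, and no counting interval can be given. Nuclear protein-coding genes held 26.6% to 32.9% of the TPM in the uninduced and 20.5% to 23.2% in the induced libraries. Genes of miRNA type held 19.8%, 18.6% and 30.1% in the uninduced and 35.02%, 41.2% and 33.9% in the induced libraries, so that uninduced replicate 3 stood nearest to the induced group. The part of this shift in the members' changes on deposited TPM was not tested beyond the rescalings given. The median log2 change over the 13470 tested genes was -0.35 (induced minus uninduced), and 0.0032 after median-of-ratios scaling, which sets the typical gene to no change. Each member's change is given on both scales. All 8 stem cell markers had a mean of at least 1 TPM. Kit, a marker of the sort, fell from a mean of 172.5 to 95.7 TPM (limma adjusted p 0.0354, and 0.224 after median-of-ratios scaling), and Ly6a, the gene of the sort marker Sca-1, rose from 14.15 to 37.3 TPM (limma adjusted p 0.00694, and 0.00412 after that scaling), both named after their values were seen.

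Among markers of other cell types, the B-cell genes Cd79a, Ebf1 and Pax5 and the T-cell genes Cd3e, Cd3d, Cd3g, Cd8a and Trbc2 were listed at 0 in all 6 libraries. The remaining gene of the 6 T-cell markers, Lck, was at 5.71, 14.5 and 2.38 TPM without and 0.348, 6.69 and 3.85 TPM with induction, and the groups overlapped. The summed level of the 8 erythroid markers was 54.6 to 60.6 TPM in uninduced and 402 to 466 TPM in induced libraries, with the globin gene Hbb-bs the highest. Of these 8 genes, 6 rose. Klf1 overlapped between the groups, and Epor, the erythropoietin receptor, was at 3.42, 2.10 and 4.57 TPM without and 0, 0 and 1.45 TPM with induction (limma adjusted p 0.0638). The sums were also higher in every induced library, on both scales, for the 6 macrophage markers (80.2 to 128 against 131 to 148 TPM) and the 4 endothelial markers (24.1 to 35.01 against 38.6 to 47.8 TPM). No gene of either list was called on deposited TPM. Most of the macrophage sum was Lyz2 (97.9 and 131 TPM in the means, limma adjusted p 0.163, and 0.0130 after scaling), and most of the endothelial sum was Pecam1 (19.4 and 34.1 TPM, limma adjusted p 0.0661, and 0.0320 after scaling). The other endothelial genes Kdr, Cdh5 and Emcn overlapped between the groups on deposited TPM. After scaling Emcn did not overlap (7.91, 6.42 and 9.35 against 10.75, 10.77 and 10.69) but was not called (limma adjusted p 0.378). For the 5 megakaryocyte markers the sums overlapped (81.7 to 113 against 105 to 114 TPM), but not after scaling (71.3 to 89.2 against 121 to 127). In that list Ppbp and Pf4 rose and Gp9 fell (limma adjusted p 0.00343, 0.0253 and 0.0187, and 0.00398, 0.00753 and 0.0623 after scaling). The 7 granulocyte markers (185 to 194 against 136 to 162 TPM) and the 6 B-cell markers (4.35 to 9.86 against 3.11 to 3.85 TPM) had lower sums in every induced library, and both overlapped after scaling (152 to 175 against 156 to 183, and 3.62 to 7.75 against 3.77 to 4.34). Prtn3, 1 of the granulocyte markers, rose (limma adjusted p 0.0114, and 0.00457 after scaling). Klf1, Epor, Kdr, Cdh5, Emcn, Ppbp, Gp9 and Prtn3 were named after their values were seen. The part of these cell types in the results below was not tested. In bulk libraries, fewer cells of a type and less RNA per cell cannot be told apart.

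Promoter sequence is shown for the members that fell. The 3 with the largest falls (Uhrf1, Hells and Dnmt1) were also the 3 with a match to the E2F motif in a RefSeq promoter window. This motif is the binding sequence of the E2F factors, which drive genes of S phase. The falls were known when this was chosen, and a part of E2F factors in them was not tested. The letters searched on both strands were TTTCCCGC, TTTGGCGC, TTTCGCGC and TTTGCCGC, in windows from 250 bases before to 50 bases after each start site (RefSeq, GRCm38.p6), where 9 of the 10 members had an entry. Capitals mark the match, and sequences run 5′ to 3′ on the strand of the gene.
Uhrf1, chr17:56304063-56304312, + strand: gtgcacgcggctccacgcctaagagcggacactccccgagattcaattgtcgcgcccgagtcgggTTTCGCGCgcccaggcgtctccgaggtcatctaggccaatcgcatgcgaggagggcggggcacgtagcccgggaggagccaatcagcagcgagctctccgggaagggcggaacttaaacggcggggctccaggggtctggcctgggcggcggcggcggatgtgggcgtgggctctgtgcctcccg
Dnmt1, chr9:20952824-20952853, - strand: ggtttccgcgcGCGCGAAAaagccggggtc
Hells, chr19:38930740-38930935, + strand: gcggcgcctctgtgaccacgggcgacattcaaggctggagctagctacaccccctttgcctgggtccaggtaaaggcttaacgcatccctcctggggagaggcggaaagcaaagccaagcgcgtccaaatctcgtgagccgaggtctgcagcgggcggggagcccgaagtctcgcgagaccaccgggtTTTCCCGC
Dnmt3b, chr2:153649199-153649448, + strand: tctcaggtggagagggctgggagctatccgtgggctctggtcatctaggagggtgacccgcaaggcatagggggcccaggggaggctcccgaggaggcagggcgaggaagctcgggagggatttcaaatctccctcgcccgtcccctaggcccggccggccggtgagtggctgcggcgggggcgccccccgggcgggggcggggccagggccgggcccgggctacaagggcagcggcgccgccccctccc

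The Uhrf1 stretch is the 250 bases before the start site at 56304313, with the match at position -185. The Hells match lies at position -62 from the start site at 38930990, and its last 21 bases shown are inside an exon of another transcript model (GENCODE M21). The Dnmt1 stretch holds the match at position -219 from the start site at 20952623. All 30 of its bases lie in an exon of a Dnmt1 transcript that starts further upstream, and a further match lay at position 34. Dnmt3b, which also fell, had no match in its window. A match was present in 2.26% of all 32817 promoter windows, in 4.25% of the 11167 windows of tested genes, and in 29% of the 31 windows of a list of replication and mitosis genes. Among the members, 3 of 14 windows (21.4%) had a match. A match is a description of the letters and not of factor binding. The full windows behind the stretches shown were rich in CpG, with 33 CpG for Uhrf1, 33 for Dnmt1, 34 for Hells and 30 for Dnmt3b, against a median of 7 over all windows and 21 over those of tested genes. Where a gene had several windows, the one with most matches was shown. The other windows of Dnmt1 held 12 and 2 CpG and that of Uhrf1 held 12, none with a match. Each motif searched holds a CpG itself, and matches were not compared with those in windows of like CpG content. The window of Tet2, which did not pass the test, held 57.

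Expression was then compared between induced and uninduced cells, to ask how these genes differed after doxycycline feeding of mice with the inducible fusion. Uhrf1, Hells, Dnmt1 and Dnmt3b fell, by 9.78-fold, 7.08-fold, 3.85-fold and 2.94-fold in mean TPM. Dnmt3a, Tet3, Uhrf2, Tet2 and Tet1 did not pass the test. Mbd2, which did not pass on deposited TPM but passed under 3 rescalings, median-of-ratios scaling among them, had higher values in each induced library. All 10 members passed the filter of a mean of at least 1 TPM. At a limma adjusted p under 0.05, 4 of 10 were lower and 0 higher, where 10.2% of the 13470 tested genes were called lower and 1.29% higher. At an unadjusted p under 0.05 there were 7 members, and 3762 of the 13470 tested genes. The groups did not overlap for 7 members, 6 of them lower in induced cells, where 28.2% of all tested genes were lower without overlap and 4.83% higher. The median log2 change of the members was -0.89 (-0.51 after median-of-ratios scaling). After that scaling, 4 members were called lower and 1 higher, with 3.1% and 2.88% of all tested genes called in those directions and 5.98% in either. Genes annotated on the strand opposite to Dnmt3a, Dnmt3b and Tet2 (Dnmt3aos, Dnmt3bos and Gm42567) were listed at 0 in all 6 libraries, and that opposite to Tet3 (B230319C09Rik) was above 0 in 1 library, at 0.248 TPM.

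**Figure D1:**
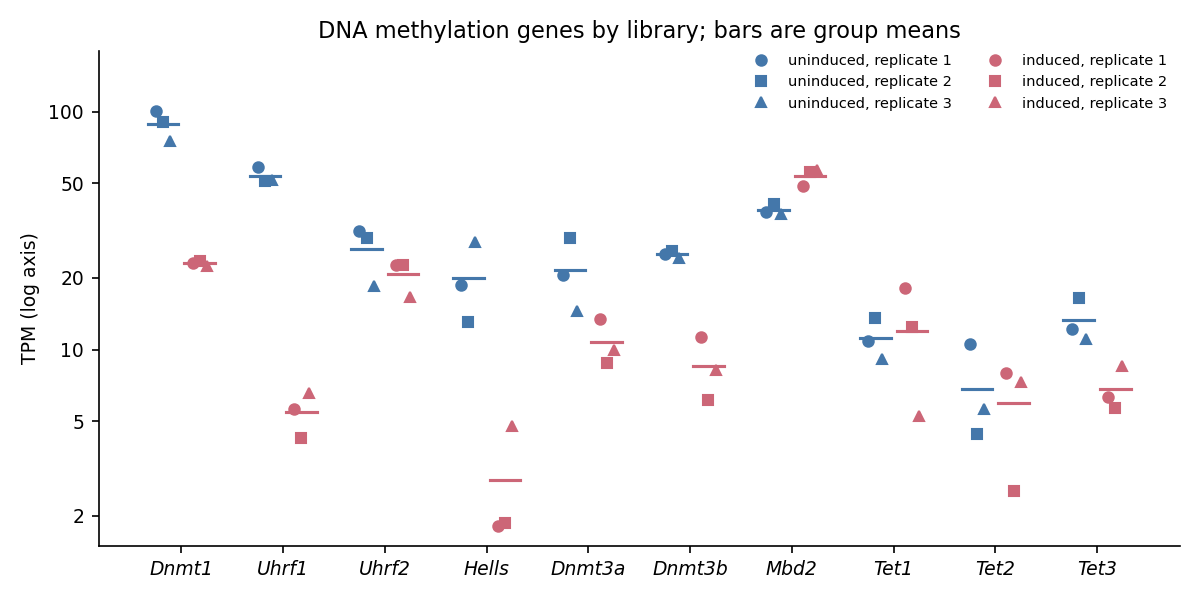
TPM of each of the 10 genes in every library, on a log axis, with uninduced libraries in blue, induced libraries in red, a symbol for each replicate and bars at the group means. Dnmt1, Uhrf1, Hells, Dnmt3a, Dnmt3b and Tet3 sit lower in all 3 induced libraries, Mbd2 sits higher, and the groups overlap for Uhrf2, Tet1 and Tet2.

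Among the maintenance genes, Uhrf1 (ENSMUSG00000001228, chromosome 17, 56303321 to 56323486) had the largest change. Uninduced cells had 58.6, 50.98 and 51.3 TPM, and induced cells 5.65, 4.27 and 6.54 TPM. Every induced library lay far below every uninduced library, and the replicates of each group were close to each other. Limma gave Uhrf1 a log2 change of -3.09 ± 0.24 (SE, with an adjusted p of 0.000197), and -2.71 after median-of-ratios scaling (limma adjusted p 0.000357). Ordered by log2 change from the lowest, Uhrf1 had rank 13 of the 13470 tested genes.

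Dnmt1 (ENSMUSG00000004099, chromosome 9, 20907209 to 20959888), the methyltransferase that Uhrf1 recruits, was at 100.1, 90.6 and 75.02 TPM without and 23.05, 23.5 and 22.5 TPM with induction. The induced libraries differed from each other by about 1 TPM, and none came near the uninduced range. For Dnmt1, the log2 change was -1.89 (SE 0.19, limma adjusted p 0.000658), and -1.49 after median-of-ratios scaling (limma adjusted p 0.00177).

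Hells (ENSMUSG00000025001, chromosome 19, 38930915 to 38971051) was more variable. It was at 18.6, 13.07 and 28.3 TPM without and 1.81, 1.86 and 4.80 TPM with induction. Replicate 3 was the highest of each group, and the groups did not overlap. Hells had a log2 change of -2.48 ± 0.40 (SE, with an adjusted p of 0.00537 from limma), and -2.14 after median-of-ratios scaling (limma adjusted p 0.0202).

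Uhrf2 (ENSMUSG00000024817, chromosome 19, 30030513 to 30093722), the paralogue of Uhrf1 that does not replace it in maintenance methylation, was at 31.3, 29.3 and 18.5 TPM without and 22.7, 22.7 and 16.7 TPM with induction. The groups overlapped. The log2 change of Uhrf2 was -0.32 (95% interval -0.90 to 0.27, limma adjusted p 0.468) and changed sign to 0.077 after median-of-ratios scaling (limma adjusted p 0.893).

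Of the de novo methyltransferases, Dnmt3b (ENSMUSG00000027478, chromosome 2, 153649450 to 153687730) was at 25.3, 25.9 and 24.2 TPM without and 11.3, 6.16 and 8.18 TPM with induction. The uninduced libraries were within 2 TPM of each other, and the groups were well apart. For Dnmt3b, the log2 change was -1.49 (SE 0.27, limma adjusted p 0.00821), and -1.11 after median-of-ratios scaling (limma adjusted p 0.0339).

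Dnmt3a (ENSMUSG00000020661, chromosome 12, 3806007 to 3914443) was at 20.6, 29.4 and 14.5 TPM without and 13.5, 8.81 and 9.93 TPM with induction. The groups did not overlap on the deposited scale, although uninduced replicate 3 lay close to induced replicate 1, and they overlapped after median-of-ratios scaling. The log2 change of Dnmt3a was -0.91 (SE 0.30, 95% interval -1.58 to -0.23) and did not pass the test (limma adjusted p 0.0827). It was -0.52 after median-of-ratios scaling (limma adjusted p 0.291). Dnmt3a did not pass under any of the 16 alternative fits, with limma adjusted p from 0.0540 to 0.291.

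Mbd2 (ENSMUSG00000024513), the methyl-CpG reader, was at 37.8, 41.0 and 37.1 TPM without and 48.8, 55.8 and 56.8 TPM with induction. Every induced library was above every uninduced library. The log2 change of Mbd2 was 0.47 (SE 0.18, 95% interval 0.072 to 0.86) and did not pass on the deposited scale (limma adjusted p 0.119). It passed after median-of-ratios scaling, at 0.86 (SE 0.16, limma adjusted p 0.0158), and also after quantile normalization and after rescaling to nuclear protein-coding genes. Its value was above 0 in each of the 16 alternative fits, from 0.43 to 0.89.

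The erasers showed no called change. Tet1 (ENSMUSG00000047146, chromosome 10, 62804570 to 62908996) was at 10.9, 13.6 and 9.10 TPM without and 18.1, 12.5 and 5.26 TPM with induction. The induced libraries spanned both ends of the range, with replicate 1 the highest and replicate 3 the lowest of all 6. For Tet1, the log2 change was -0.041 (95% interval -0.93 to 0.85, limma adjusted p 0.960), and 0.33 after median-of-ratios scaling (limma adjusted p 0.696).

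Tet2 (ENSMUSG00000040943, chromosome 3, 133463679 to 133545139) was at 10.5, 4.44 and 5.62 TPM without and 7.96, 2.55 and 7.30 TPM with induction. The groups overlapped, and the spread within each group was wide. Tet2 had a log2 change of -0.22 (95% interval -1.21 to 0.78, limma adjusted p 0.790), and 0.12 after median-of-ratios scaling (limma adjusted p 0.909).

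Tet3 (ENSMUSG00000034832, chromosome 6, 83362373 to 83459084) was at 12.2, 16.5 and 11.1 TPM without and 6.32, 5.67 and 8.51 TPM with induction. The groups did not overlap on either scale. Limma gave Tet3 a log2 change of -0.86 (SE 0.29, 95% interval -1.51 to -0.22, limma adjusted p 0.0818), and -0.50 after median-of-ratios scaling (limma adjusted p 0.289). For Tet1 and Tet2 the intervals span changes in both directions, so the test does not show that their levels were equal.

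**Figure D2:**
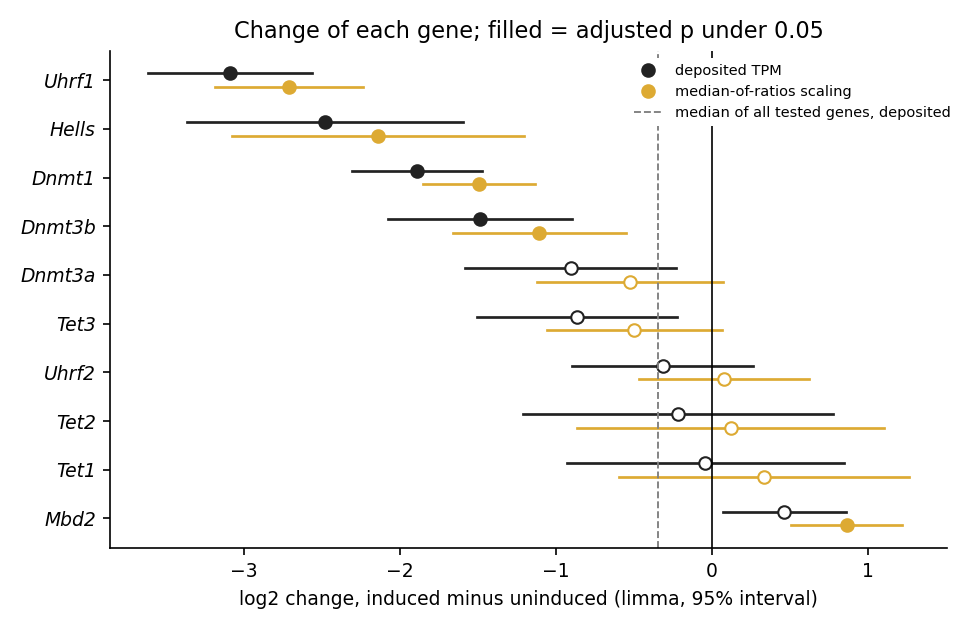
Log2 change of each gene, induced minus uninduced, with the 95% interval from limma, on deposited TPM (black) and after median-of-ratios scaling (yellow), and the median of all tested genes (-0.35) as a dashed line. Filled points have an adjusted p under 0.05: Uhrf1, Hells, Dnmt1 and Dnmt3b on both scales and Mbd2 on the second only.

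The order of the levels changed with these values. Dnmt1 was the highest of the 10 genes in all 3 uninduced libraries and Tet2 the lowest. Mbd2 was the highest in all 3 induced libraries and Hells the lowest. Mean levels in uninduced cells ran from Dnmt1 (88.6 ± 12.6 TPM, SD, n = 3) through Uhrf1 (53.6 ± 4.30), Mbd2 (38.6 ± 2.08), Uhrf2 (26.4 ± 6.88), Dnmt3b (25.1 ± 0.831), Dnmt3a (21.5 ± 7.47), Hells (19.99 ± 7.71), Tet3 (13.3 ± 2.87) and Tet1 (11.2 ± 2.28) to Tet2 (6.86 ± 3.23). From Uhrf2 down to Tet1, each mean differed from the next by less than the larger of their SDs, while Dnmt1, Uhrf1, Mbd2 and Tet2 differed from their neighbours by more. In induced cells the order was Mbd2 (53.8 ± 4.37 TPM, SD, n = 3), Dnmt1 (23.0 ± 0.484), Uhrf2 (20.7 ± 3.46), Tet1 (11.9 ± 6.44), Dnmt3a (10.7 ± 2.42), Dnmt3b (8.55 ± 2.60), Tet3 (6.83 ± 1.49), Tet2 (5.94 ± 2.95), Uhrf1 (5.49 ± 1.14) and Hells (2.82 ± 1.71). Dnmt1 and Uhrf2, and all neighbours from Tet1 to Uhrf1, differed by less than the larger SD.

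Ratios of genes within a library do not depend on how the library is scaled, so 11 such measures were compared by an exact two-sided permutation test over the libraries. With 3 libraries against 3 the smallest possible p is 0.1, so this test cannot pass 0.05, and the Benjamini-Hochberg adjusted p over the 11 measures was 0.22 for each measure whose groups did not overlap. The summed TPM of the methyltransferases Dnmt1, Dnmt3a and Dnmt3b was 4.34, 4.22 and 4.41 times the summed TPM of the Tet genes in the uninduced libraries. In the induced libraries it was 1.48, 1.86 and 1.93 times. The log2 ratio thus went from 2.11 ± 0.033 to 0.80 ± 0.21 (n = 3 per group, SD, exact permutation p 0.1).

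The makeup of the methyltransferase transcripts was compared as shares. Dnmt1 held 68.6%, 62.1% and 65.9% of the summed Dnmt TPM in uninduced and 48.2%, 61.04% and 55.4% in induced libraries. Dnmt3a held 14.1%, 20.1% and 12.8% in uninduced and 28.1%, 22.9% and 24.5% in induced libraries. Neither share overlapped between the groups (exact permutation p 0.1 each), although for Dnmt1 the gap between uninduced replicate 2 and induced replicate 2 was small. The share of Dnmt3b overlapped, at 18.8% ± 2.18 and 19.95% ± 3.83 (n = 3 per group, SD, exact permutation p 0.7).

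Of the Uhrf pair, Uhrf1 held 65.2%, 63.5% and 73.5% of the summed TPM in the uninduced libraries and 19.95%, 15.8% and 28.1% in the induced libraries (exact permutation p 0.1). Uhrf1 was thus the more abundant of the pair in every uninduced library and Uhrf2 in every induced library. The shares of Tet1, Tet2 and Tet3 in the summed Tet TPM overlapped between the groups, with exact permutation p of 0.4, 0.8 and 0.2. Induced replicate 3 stood apart from the other induced libraries, with Tet1 at 24.96% against 55.9% and 60.3%.

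**Figure D3:**
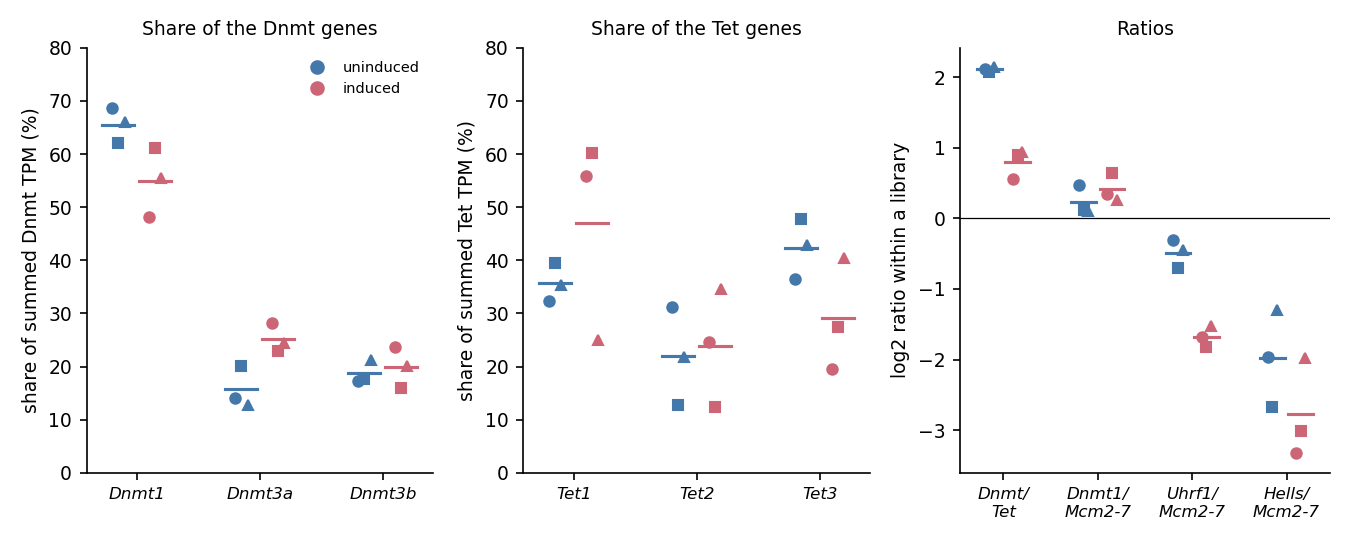
Shares of the summed Dnmt TPM (left) and of the summed Tet TPM (middle), in percent, and log2 ratios within each library (right), with uninduced libraries in blue, induced in red and bars at the group means. The Dnmt to Tet and Uhrf1 to Mcm2-7 ratios are lower in all 3 induced libraries, while Dnmt1 to Mcm2-7 and the Tet shares overlap.

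Maintenance methylation is coupled to the replication fork, so the members are set beside genes of replication and mitosis. Of 20 replication genes, 18 fell and 0 rose (median log2 change -1.96, against -0.35 for all tested genes), and of 15 tested mitosis genes, 13 fell and 0 rose (median -2.42). After median-of-ratios scaling these counts were 14 and 10. The share of all tested genes called lower was 10.2%, and 3.1% after scaling. Mcm2, a subunit of the replicative helicase, fell from 65.4 ± 7.41 to 14.7 ± 2.92 TPM (n = 3 per group, SD, log2 change -2.09, limma adjusted p 0.000911, and -1.70 after that scaling). Mki67, a marker of cycling cells, fell from 49.9 ± 2.83 to 7.04 ± 0.856 TPM (n = 3 per group, SD, log2 change -2.67, limma adjusted p 0.000255, and -2.28 after that scaling).

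Within a library, Dnmt1 was set against the geometric mean of the helicase genes Mcm2 to Mcm7. The log2 ratio was 0.47, 0.12 and 0.10 in the uninduced and 0.34, 0.64 and 0.25 in the induced libraries. The groups overlapped (difference 0.18, exact permutation p 0.3). The difference was 0.30 without uninduced replicate 1, 0.12 without uninduced replicate 3 and 0.066 without induced replicate 2, so its size rests on single libraries.

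For Uhrf1 the log2 ratio to the helicase genes was -0.30, -0.71 and -0.45 in the uninduced and -1.69, -1.82 and -1.53 in the induced libraries. Every induced library was lower, by 1.19 log2 units in the mean (exact permutation p 0.1, the smallest possible). The difference stayed between -1.30 and -1.10 when any 1 library was dropped. For Hells the ratio was -1.96, -2.67 and -1.30 against -3.33, -3.01 and -1.98, and the groups overlapped (difference -0.80, exact permutation p 0.2). That difference was -0.46 without uninduced replicate 3, -0.52 without induced replicate 1 and -1.19 without induced replicate 3.

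Other genes of the pathway were taken from 5 lists by role, 62 genes in all, of which 56 were tested. Of these, 18 fell and 0 rose, and their median log2 change was -0.59 (-0.22 after median-of-ratios scaling, where 10 fell and 2 rose), with -0.35 and 0.0032 as the medians of all tested genes. Of all tested genes, 10.2% were called lower and 1.29% higher, and 3.1% and 2.88% after scaling. All 7 tested partners of maintenance methylation fell, and 4 of them (Lig1, Cdca7, Pcna and Trim28) were called lower after that scaling. Trim28 was named after its values were seen, as was Cdca7l, which lost its call (limma adjusted p 0.0903). Lig1, the ligase that joins replicated strands, was at 61.6, 85.7 and 81.9 TPM against 13.97, 18.4 and 12.03 TPM (log2 change -2.30, limma adjusted p 0.000705, and -1.90 after scaling). Cdca7, the zinc finger protein that works with Hells, was at 72.2, 86.1 and 73.3 TPM against 23.95, 14.8 and 15.5 TPM (log2 change -2.06, limma adjusted p 0.00124, and -1.67 after scaling). Every induced library was below every uninduced library for both genes. Pcna, the sliding clamp, fell from 111 ± 18.1 to 40.8 ± 10.2 TPM (n = 3 per group, SD, limma adjusted p 0.00464, and 0.0145 after scaling). Zfp57, which keeps methylation at imprinted loci, fell from 5.40 ± 1.87 to 0.897 ± 0.287 TPM (limma adjusted p 0.0256, and 0.0732 after median-of-ratios scaling). Usp7, which stabilises Dnmt1 and Uhrf1, fell from 82.4 ± 19.8 to 39.8 ± 2.40 TPM (limma adjusted p 0.0160), a call lost after median-of-ratios scaling (-0.60, limma adjusted p 0.0750).

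In the supply of methyl groups and cofactors, 5 of 17 genes fell and 0 rose (4 fell after median-of-ratios scaling), beside the 10.2% of all tested genes called lower (3.1% after scaling). The folate enzymes Shmt1 (24.8 ± 8.48 to 2.23 ± 0.507 TPM), Mthfd1 (40.2 ± 2.58 to 13.04 ± 3.18 TPM) and Shmt2 (54.9 ± 9.06 to 18.7 ± 4.56 TPM) were among them (n = 3 per group, SD, limma adjusted p 0.00115, 0.00450 and 0.00528, and 0.00314, 0.0247 and 0.0252 after scaling). Idh3a, a subunit of the mitochondrial isocitrate dehydrogenase that yields oxoglutarate, fell from 33.04 ± 5.81 to 12.8 ± 1.72 TPM (limma adjusted p 0.00806, and 0.0318 after scaling). Idh2 was at 81.1 ± 8.17 and 52.4 ± 6.75 TPM and Idh1 at 9.44 ± 2.52 and 8.91 ± 3.38 TPM (n = 3 per group, SD, limma adjusted p 0.0505 and 0.869, and 0.457 and 0.749 after scaling).

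Of 8 tested partners and chromatin cues of de novo methylation, 1 fell, a share near the 10.2% of all tested genes. This was Suv39h1, a histone H3 lysine methyltransferase, at 13.8 ± 3.44 and 2.201 ± 0.275 TPM (n = 3 per group, SD, limma adjusted p 0.00403, and 0.00833 after scaling). Dnmt3l, the cofactor of Dnmt3a and Dnmt3b, was listed at 0 in all 6 libraries. Of 11 other readers, Mbd3, Mbd6 and Gatad2a fell (limma adjusted p 0.0279, 0.0198 and 0.0394) and 0 rose, and after median-of-ratios scaling 0 were called. With so few genes these counts do not set the list apart from all tested genes. These 3 were named after their values were seen.

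Of 13 tested partners of demethylation, 2 fell and 0 rose, where 10.2% of all tested genes were called lower and 1.29% higher. So few genes do not set this list apart from all tested genes. After median-of-ratios scaling 1 fell and 2 rose, with 3.1% and 2.88% of all tested genes called in those directions. Parp1, which senses strand breaks in base excision repair, fell from 74.4 ± 9.23 to 28.8 ± 2.53 TPM (n = 3 per group, SD, limma adjusted p 0.00366, and 0.0165 after scaling). Apex1, the repair endonuclease, also fell (limma adjusted p 0.0103, and 0.0762 after median-of-ratios scaling). Tdg, the glycosylase that removes oxidised methylcytosine, was at 4.33, 13.97 and 2.35 TPM without and 4.30, 3.16 and 2.42 TPM with induction (limma adjusted p 0.487, and 0.806 after scaling). Ogt, a partner of the Tet enzymes, and Gadd45a were called higher only after median-of-ratios scaling (0.82 and 1.52, limma adjusted p 0.0162 and 0.0415). Apex1, Ogt and Gadd45a were named after their values were seen.

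**Figure D4:**
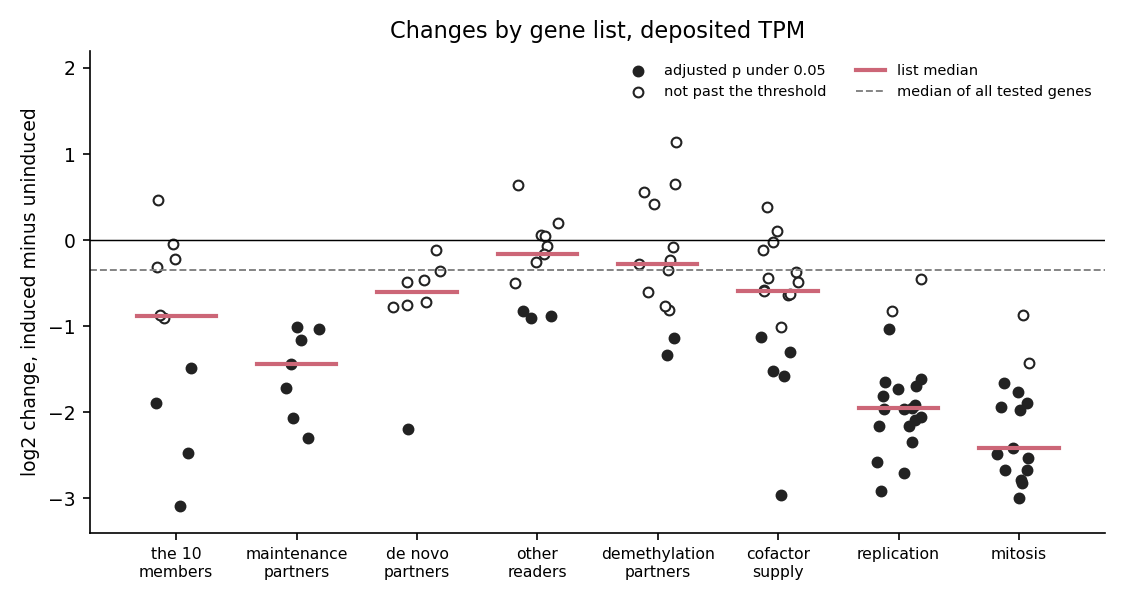
Log2 change of each tested gene, induced minus uninduced, on deposited TPM, for the 10 members and 7 other lists, with filled points at an adjusted p under 0.05, red bars at list medians and a dashed line at the median of all tested genes (-0.35). All 7 maintenance partners and most replication and mitosis genes are filled and below 0, while the other readers and demethylation partners lie around the dashed line.

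Germline genes whose promoters are methylated in somatic cells were examined as a list of 15. None reached a mean of 1 TPM, so none was tested. At 1 TPM or more, 1 was seen in uninduced replicate 2 (Brdt, at 1.24 TPM, named after its value was seen) and 0 in the other 5 libraries. At 0.1 TPM or more there were 2, 2 and 1 in the uninduced and 2, 2 and 1 in the induced libraries. DNA methylation itself was not measured.

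The genes whose log2(TPM + 1) values were most like those of 3 members over the 6 libraries were picked among 10575 tested protein-coding genes, as a description. For Dnmt1 they were Obsl1, Mrpl47 and Lmnb1 (Pearson r 0.999, 0.998 and 0.998). Lmnb1, which encodes lamin B1, was at 102, 104 and 83.9 TPM without and 25.2, 25.9 and 26.5 TPM with induction, a level close to that of Dnmt1. For Dnmt3a they were Fut8, Pign and Fcf1 (r 0.999, 0.998 and 0.994), and for Tet2 they were Aar2, Slu7 and Cklf (r 0.989, 0.980 and 0.969). With 6 libraries in 2 groups and so many genes, values this high carry no test.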

How the data were processed

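Total RNA libraries of sorted stem cells (3 uninduced, 3 induced) were grouped by title. The authors deposited 1 table of TPM per gene and library, made with StringTie per the name of the table. The submitters' processing notes also name bcl2fastq, HISAT2, DESeq2 and the build GRCm38. Versions, annotation and strand setting are not given in the sources used here. GC content in percent, per the file headers, was not used. Rows (60496) were summed per gene ID. Depth is unknown in TPM, so the number of libraries sets the precision.

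Genes whose mean TPM reached 1 were tested on log2(TPM + 1) with limma 3.58.1 (R 4.3.3), with a variance trend, two-sided, and Benjamini-Hochberg adjustment over 13470 genes. This scale understates changes of low genes. On simulated data with the 13470 genes, 90% of genes changed by 2 log2 units and 31% of those changed by 1 were recovered, and 8 of 129 calls were false. The simulation changed 200 genes of higher level, as many up as down, in independent noise. The calls in the data were more and mostly lower, so these rates may not carry over. Median-of-ratios factors came from tested genes above 0 in every library. Alternatives varied the pseudocount, filter, scaling and weights, added a block by replicate number, or dropped 1 library at a time. Named were all members, called pathway genes up to the 10 largest changes, and Pcna, Usp7, Cdca7, Tdg, Idh1, Idh2, Mcm2 and Mki67; a further gene of this rule is not reported here. Members and lists were chosen with earlier results of these data known. Coordinates are from GENCODE M21 (GRCm38).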

Additional observations from a re-analysis of the deposited data

How the results depend on the processing

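Uhrf1, Dnmt1, Hells and Dnmt3b passed in each of the 16 alternative fits, with the largest adjusted p at 0.00555, 0.00905, 0.0411 and 0.0415, and the member count was 4 or, under the 3 rescalings, 5. The 1549 genes called became 752 without the expression filter, 767 without the variance trend, 806 with median-of-ratios factors, 814 with quantiles made equal, 944 on the scale of nuclear protein-coding genes and 902 with the replicate block. Dropping 1 library gave 573 to 1198. The share of lower among the called genes fell with the rescalings (418 of 806, 440 of 814 and 479 of 944, against 1375 of 1549). The 18 pathway genes became 11 without the variance trend, and 10 to 15 with 1 library dropped (11 without induced replicate 1 and 10 without induced replicate 2). For these counts the cause was not tested.

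Under the replicate block, 4 members, 13 pathway genes and 28 replication and mitosis genes passed. Same-numbered libraries had deviations from their group means that correlated at 0.0215, -0.0152 and 0.0172, and uninduced replicate 2 correlated best with induced replicate 3, so the numbers were not taken as pairs.

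Changes of sign, all in results that did not pass, were as follows. Under the 3 rescalings, in the order given for the counts (806, 814, 944), Uhrf2 was at 0.077, 0.077 and 0.11, Tet1 at 0.33, 0.32 and 0.36, Tet2 at 0.12, 0.10 and 0.15, and Idh1 at 0.25, 0.25 and 0.28. With array weights Tet1 was at 0.0063. With 1 library dropped, Tet1 ranged from -0.39 to 0.41, Tet2 from -0.46 to 0.21, Tdg from -1.08 to 0.00079 and Idh1 from -0.33 to 0.21. The differences in the shares of Dnmt3b and Tet2 ranged from -0.70 to 3.12 and from -3.51 to 7.66 percentage points. Usp7 lost its call under 10 alternatives and Zfp57 under 9. Idh2 passed under 1, the filter at a mean of 5 TPM.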
